A study of Mus musculus with 124 samples.

Results

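The 28 hCG blastocysts of the series were ranked by their own level of Cdkn1a, the gene for the p21 inhibitor of cyclin-dependent kinases. The 14 with the highest level (the high group) were set against the 14 with the lowest (the low group), across the other expressed genes, so the groups were chosen by measured Cdkn1a CPM. They are 28 of the 56 blastocyst RNA samples and of 124 samples in all. The blastocysts came from uterine flushes at embryonic day 3.5 and were profiled by Smart-seq2, a full-length method for very small amounts of polyadenylated RNA. Mothers of the hCG embryos, in natural estrus, had received 7.5 IU of human chorionic gonadotropin (the hormone that triggers ovulation) into the peritoneum, with no priming hormone. The Ctrl samples are 28 blastocysts from the unexposed group. The labels give no strain, litter or animal for a sample, so p-values measure the spread between these samples, and any of them may share a mother.

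p53, the product of Trp53, is a transcription factor held at a low level by the ubiquitin ligase Mdm2 and released from it when DNA is damaged or cells are stressed. It then binds DNA as a tetramer and turns on Cdkn1a, which stops the cell cycle, together with genes for cell death, DNA repair and its own feedback, among them Mdm2. Cdkn1a also answers to transcription factors other than p53. At embryonic day 3.5 the mouse embryo holds an outer trophectoderm and an inner cell mass that gives rise to epiblast and primitive endoderm.

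Levels are CPM, counts scaled to the sample's total, and the hCG samples held an estimated 4263369 to 9259357 reads. In the high group Cdkn1a ran from 279 CPM through a median of 301 to 929 CPM, and in the low group from 120 through 212 to 277 CPM. These levels chose the groups and carry no test. The boundary fell within a dense stretch: sample hCG 18, the last of the high group, stood at 279 CPM and hCG 24, the first of the low group, at 277 CPM. Their 1804 and 1487 estimated Cdkn1a reads give a counting SD of 6.57 and 7.18 CPM, so counting error alone exceeds the gap between them. In all, 10 of the 28 samples lay within 10% of the midpoint of 278 CPM. The spread came mainly from the top, where hCG 6 (929 CPM) and hCG 14 (540 CPM) stood above the third sample at 443 CPM.

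**Figure D1:**
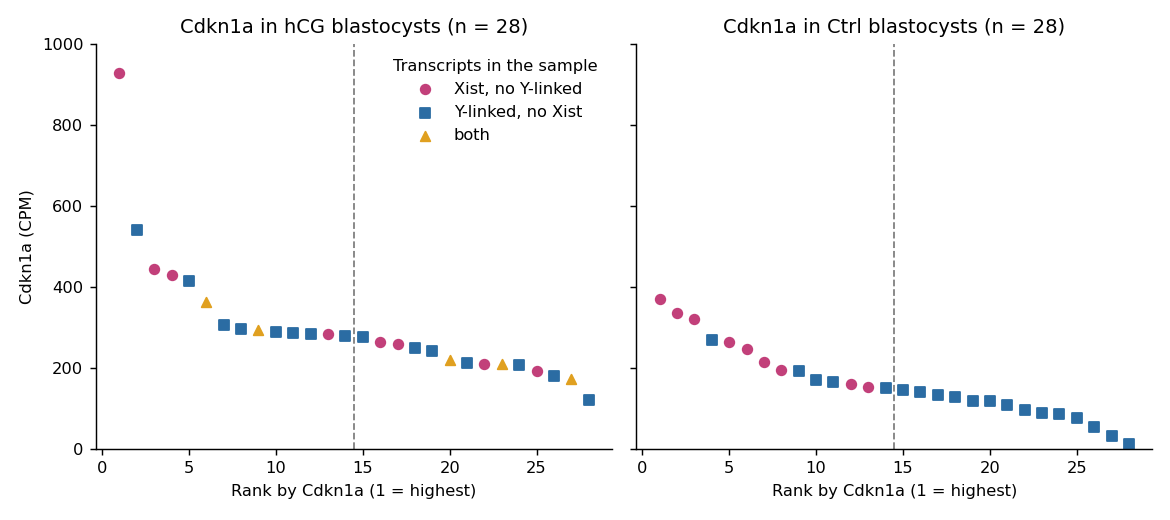
Cdkn1a level (CPM, vertical axis) of each blastocyst by rank, for 28 hCG (left) and 28 Ctrl samples (right). The dashed line separates the 14 high from the 14 low samples, and markers show whether a sample held Xist transcripts, Y-linked transcripts or both. hCG 6 stands alone at 929 CPM, and the 14 low Ctrl samples all carry the Y-linked marker.

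Other materials of the series sat far lower than the hCG blastocysts in CPM, though their deposited values are other kinds of counts. Cdkn1a ran from 1.43 to 5.07 CPM in 12 ovulated oocyte samples and from 5.75 to 15.9 CPM in 12 samples of the offspring's dorsal dentate gyrus. The lowest hCG blastocyst, at 120 CPM, was above every one of them. The lowest Ctrl blastocyst, at 12.5 CPM, lay within the dentate gyrus range.

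Of the promoter windows that RefSeq gives for these genes, 3 are shown because Cdkn1a chose the groups, Btg2 was called between them, and Ccng1 is a p53 target that was called in Ctrl and rose with Cdkn1a over the hCG samples. Capitals mark matches to the p53 half-site, the 10-base unit of a p53 response element, searched on both strands (it reads the same on each). Each window holds 250 bases before and 50 after a transcript's start, 5′ to 3′ on the gene's strand (GRCm38.p6).
Cdkn1a, chr17:29090729-29091028, plus strand: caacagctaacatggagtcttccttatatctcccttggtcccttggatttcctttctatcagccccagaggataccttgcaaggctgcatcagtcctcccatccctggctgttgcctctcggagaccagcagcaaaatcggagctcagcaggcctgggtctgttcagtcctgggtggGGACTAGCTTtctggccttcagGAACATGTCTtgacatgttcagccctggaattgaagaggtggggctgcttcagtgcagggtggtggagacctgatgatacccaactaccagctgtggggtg
Ccng1, chr11:40755237-40755536, minus strand: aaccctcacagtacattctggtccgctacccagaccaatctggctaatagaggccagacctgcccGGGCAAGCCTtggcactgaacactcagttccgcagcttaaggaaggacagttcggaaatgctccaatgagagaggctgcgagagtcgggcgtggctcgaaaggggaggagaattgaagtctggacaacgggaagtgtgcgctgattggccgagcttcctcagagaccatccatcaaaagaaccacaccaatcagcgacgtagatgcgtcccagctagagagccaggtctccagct
Btg2, chr1:134079106-134079405, minus strand: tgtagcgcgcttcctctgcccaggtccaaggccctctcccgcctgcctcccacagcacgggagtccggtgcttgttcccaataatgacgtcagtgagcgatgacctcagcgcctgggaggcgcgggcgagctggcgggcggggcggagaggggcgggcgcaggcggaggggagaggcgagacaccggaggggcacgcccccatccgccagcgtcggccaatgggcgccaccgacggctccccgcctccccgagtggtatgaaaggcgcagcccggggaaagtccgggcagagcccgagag
The Cdkn1a window held 2 matches, and a second Cdkn1a window at chr17:29093519-29093818 held 0. The windows of Ccng1, Mdm2 and Bax held 1 match each, and so did those of the called genes Gusb and Map2k2. The windows of Btg2, of the p53 targets Plk2, Ephx1, Eda2r, Pidd1, Rbm38 and Tap1, and of the called genes Klf6, Cldn4, Hyal1 and Sec14l3 held 0. The p53 target Polk and Abhd4, which both rose with Cdkn1a over the hCG samples, each had a window with 1 match and another with 0. For Perp, Trp53inp1 and Zmat3 there was no window. Over all windows of the table, 8.36% held a match, as did at least 1 window of 7.97% of the 8749 tested genes with one. Among p53 targets that was 10 of 42 genes (23.8%), and among genes of p53 feedback and stability 6 of 14 (42.9%), lists that hold known p53 targets by construction. The matches describe the letters of the windows alone.

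The 28 hCG samples expressed the genes of a blastocyst. The trophectoderm keratins Krt8 and Krt18, the trophectoderm factor Cdx2, the pluripotency genes Pou5f1 and Nanog and the primitive endoderm factor Gata6 were above 0 in each. Of genes that maternal tissue can bring, the leukocyte gene Ptprc and the stromal gene Dcn were at 0 in 27 of 28 samples, and the granulosa genes Amh and Has2 in 28. Others were measured: Cd74 had a median of 48.5 CPM, Pecam1 27.3, H2-Ab1 20.4 and the granulosa gene Amhr2 7.41 CPM, and Hba-a1 reached 164 CPM. The stromal gene Col1a1 was at 0 in 6 of 28 samples, with a median of 1.48 and a highest level of 6.65 CPM. Pecam1 was at 0 in 0 samples (lowest 4.32 CPM). Whether the embryo itself made these transcripts was not tested. The high group held 6003090 ± 1456680 estimated reads (SD, n = 14) and the low group 5209030 ± 515178 (two-sided permutation test, p = 0.0631, adjusted over 3 measures p = 0.189). The high group had 13642 ± 251 genes detected and the low group 13457 ± 390.3 (permutation test, adjusted p = 0.224). Xist without Y-linked transcripts was found in 4 high and 4 low samples, Y-linked transcripts without Xist in 8 and 7, and both (each above 50 CPM) in 2 and 3. Replicates were distinct: the closest pair had a correlation of 0.955 over log2 CPM.

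Between the groups, 7 genes differed (0.0645% of 10847 tested), 6 higher (0.0553%) and 1 lower (0.00922%) in the high group, by limma at an adjusted p under 0.05. The higher genes were Btg2, Klf6, Cldn4, Hyal1, Gusb and Sec14l3, and the lower one Map2k2. Differences are of log2(CPM + 1), with SE. An unadjusted p under 0.05 was reached by 521 genes upward (4.8%) and 550 downward (5.07%), and the median difference over the tested genes was 0.01. Adjusting for log2 depth or for the detected gene number left 0 calls by limma (922 and 843 at an unadjusted p under 0.05). The differences of the 7 genes kept their sign. For Btg2 the difference went from 1.29 to 1.21 and 1.191, and for Gusb from 0.90 to 0.88 and 0.79. That of Cldn4 went from 0.73 to 0.65 and 0.61, and that of Map2k2 from -0.64 to -0.61 and -0.65. The sizes for Hyal1, Klf6 and Sec14l3 are not given here, and the part of depth in the calls was not tested. edgeR called 8 genes.

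Btg2, an antiproliferative factor that p53 turns on, ran from 61.5 through a median of 142 to 692 CPM in the high group and from 30.5 through 71.9 to 126 CPM in the low group. The groups overlapped, but 13 of 14 high samples stood above the low group's median. The difference was 1.29 ± 0.26 (limma, adjusted p = 0.0434). Btg2 lies at chr1:134074865-134079155 (GRCm38.p6).

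Klf6, a zinc finger factor known to activate Cdkn1a, ran from 198 through 360 to 572 CPM in the high group and from 138 through 241 to 345 CPM in the low group. The upper 8 high samples lay above every low sample. The difference was 0.67 ± 0.14 (limma, adjusted p = 0.0381). Klf6 was the 1 gene called of 20 tested regulators of Cdkn1a other than p53 (0.0645% of tested genes were called). In that list 7 differences were positive, against 52% of tested genes, and the median was -0.09. An unadjusted p under 0.05 was reached there by 1 gene upward and 2 downward. Cldn4, a tight junction claudin of the trophectoderm, was the most abundant of the 7. It ran from 1170 through 1953 to 3120 CPM in the high group and from 400.4 through 1214 to 1814 CPM in the low group. There 11 of 14 high samples exceeded the whole low group, and the difference was 0.73 ± 0.15 (limma, adjusted p = 0.0434).

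A pair of lysosomal enzymes was called. Hyal1, a hyaluronidase, ran from 19.5 through 29.1 to 38.1 CPM in the high group and from 7.37 through 15.4 to 29.2 CPM in the low group. Gusb, the beta-glucuronidase, ran from 38.0 through 59.1 to 85.0 CPM and from 11.4 through 32.2 to 63.3 CPM. In both genes the 14 high samples all lay above the low group's median. The differences were 0.86 ± 0.16 for Hyal1 and 0.90 ± 0.17 for Gusb (limma, adjusted p = 0.0353 for each).

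Sec14l3, of a family of lipid-binding proteins, was the faintest gene called: 0.36 through 3.97 to 19.1 CPM in the high group and 0 through 0.494 to 2.91 CPM in the low group. It was named after its values were seen, being under the 5 CPM set for named genes. The difference was 1.67 ± 0.33 (limma, adjusted p = 0.0353). Map2k2, the kinase MEK2 of the ERK cascade, ran the other way, from 20.7 through 29.4 to 37.0 CPM in the high group and from 30.9 through 43.4 to 69.6 CPM in the low group. Each of the 14 high samples stood below the low group's median, and the difference was -0.64 ± 0.13 (limma, adjusted p = 0.0381).

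**Figure D2:**
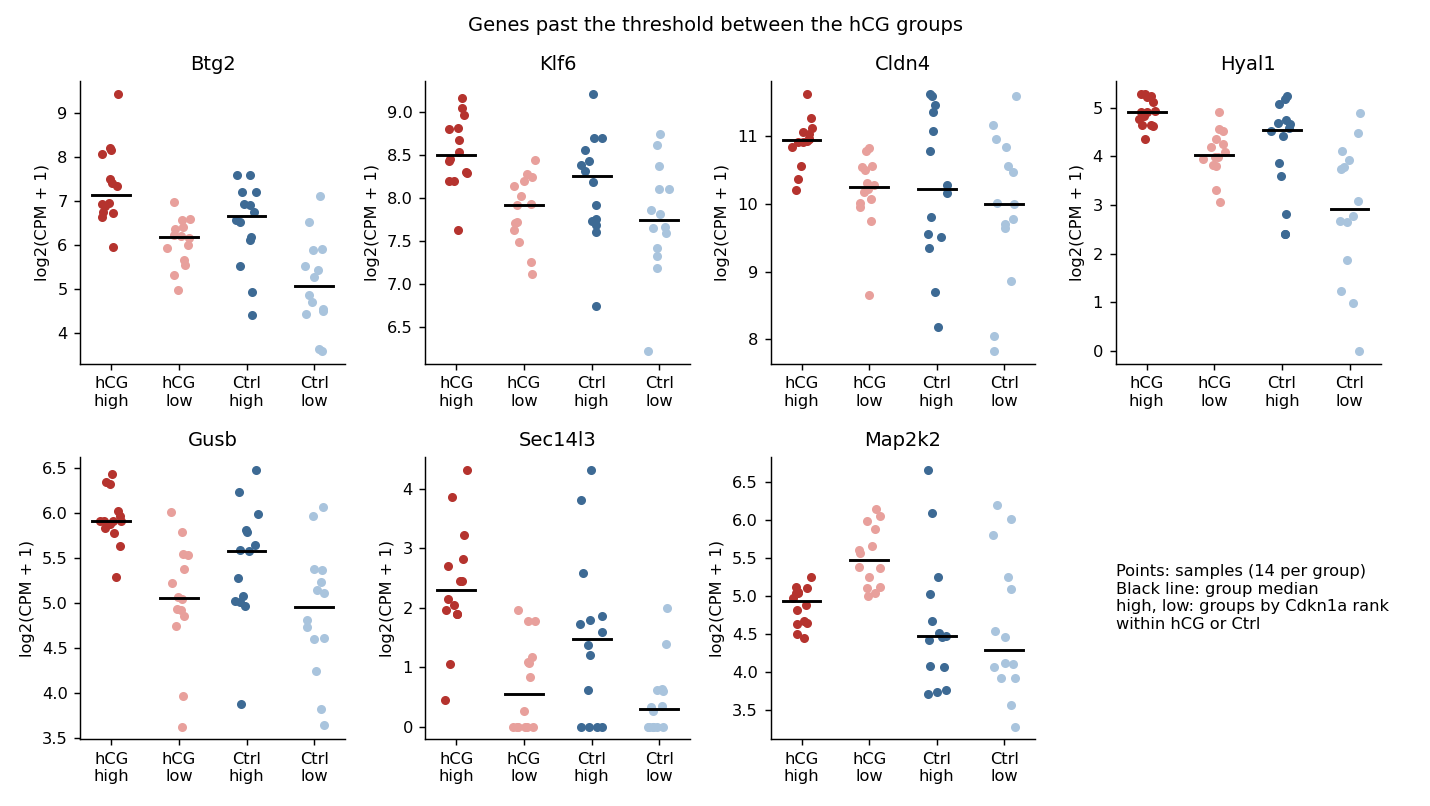
Level of the 7 called genes as log2(CPM + 1) in each sample, by high and low Cdkn1a within hCG (red) and within Ctrl (blue). Points are samples, 14 per group, and black lines are medians. The hCG groups shift apart in each gene with some overlap, and in Ctrl the Map2k2 groups lie over each other.

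These calls were near the threshold. Leaving out 1 sample gave 0 to 25 called genes, and 0 without hCG 10, 11, 17, 18, 19 or 25. Of the 28 fits that leave out 1 sample, Gusb and Hyal1 were called in 22, Sec14l3 in 21, Klf6 in 16, Map2k2 in 15, Cldn4 in 12 and Btg2 in 11. Without the 5 samples with both Xist and Y-linked transcripts 8 genes were called, 6 of them the same.

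Known p53 target genes mostly had higher means in the high group, with few single calls. The 3 target lists share some genes (Perp and Pidd1 stand in the arrest and cell death lists) and held 50 tested genes without Cdkn1a. Of these, 42 had a positive difference, against 52% of tested genes. An unadjusted p under 0.05 was reached upward by 16 and downward by 0, against 4.8% and 5.07% of tested genes. Of the 50, 1 was called, against 0.0645% of tested genes, a share that gives 0 calls for lists of this size. The median difference was 0.26, against 0.01 over the tested genes.

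In the list of cell cycle arrest targets Btg2 was called, 10 of 11 differences were positive and the median was 0.55. The kinase Plk2 ran from 32.2 through 62.2 to 131 CPM in the high group and from 19.2 through 31.2 to 79.0 CPM in the low group. All of its 14 high samples lay above the low group's median, with a difference of 0.65 ± 0.21 (limma, adjusted p = 0.244). Ccng1, the cyclin G1 gene, ran from 308 through 432 to 765 CPM and from 190 through 367 to 436 CPM, with wide overlap and a difference of 0.48 ± 0.13 (limma, adjusted p = 0.172). Sfn, encoding the 14-3-3 sigma protein, was the one arrest target with a negative difference (-0.16 ± 0.17).

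Of 14 cell death targets 0 were called (0.0645% of tested genes were), 11 differences were positive (52% of tested genes) and the median was 0.23. Perp, a membrane protein of desmosomes and an effector of p53-dependent death, just missed the threshold. It ran from 170.5 through 264 to 466 CPM in the high group and from 102 through 159 to 224 CPM in the low group. Its 9 uppermost high samples exceeded the whole low group, and the difference was 0.71 ± 0.15 (limma, adjusted p = 0.0509). Bax, the mitochondrial pore former, ran from 106 through 144 to 243 CPM and from 92.2 through 165 to 234 CPM, and its difference was -0.12 ± 0.12 (limma, adjusted p = 0.783), while its slope per doubling of Cdkn1a was 0.09 ± 0.11. Pidd1, which forms the PIDDosome, differed by 0.82 ± 0.23, and Pmaip1, the gene for Noxa, by 0.57 ± 0.32, both short of the threshold.

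The list of repair, metabolism and redox targets had 25 of 29 positive differences (52% of tested genes) and a median of 0.25. It held 0 calls (0.0645% of tested genes). An unadjusted p under 0.05 was reached by 8 upward and 0 downward (4.8% and 5.07% of tested genes). Ephx1, the microsomal epoxide hydrolase, ran from 66.0 through 100.1 to 203 CPM in the high group and from 31.1 through 67.3 to 103 CPM in the low group. The difference was 0.73 ± 0.16 (limma, adjusted p = 0.0509). The peptide transporter Tap1 differed by 0.82 ± 0.21, the translesion polymerase Polk by 0.69 ± 0.21 and the ectodysplasin receptor Eda2r by 0.68 ± 0.23. Pcna, the sliding clamp of replication, differed by 0.00 ± 0.10.

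The p53 gene itself showed no difference past the threshold. Trp53 ran from 56.7 through 72.5 to 122 CPM in the high group and from 12.7 through 79.9 to 171 CPM in the low group, where the spread was wider. The difference was 0.14 ± 0.22 (limma, adjusted p = 0.892), and its sign turned without hCG 28 and by edgeR. Mdm2, the ligase that degrades p53, ran from 52.9 through 89.5 to 156 CPM and from 43.7 through 73.2 to 105 CPM (0.40 ± 0.14, limma, adjusted p = 0.268). Of 16 genes of p53 feedback and stability 0 were called (0.0645% of tested genes were), 9 differences were positive (52% of tested genes) and the median was 0.07. Within that list Rbm38 (0.88 ± 0.27), Trp53inp1 (0.62 ± 0.20) and Ccng1 were highest. Mdm4 (0.04 ± 0.11), Usp7 (-0.08 ± 0.10) and Aen (-0.11 ± 0.14) lay near 0. Cop1 (-0.22 ± 0.15) and Hipk2 (-0.18 ± 0.29) were lowest.

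**Figure D3:**
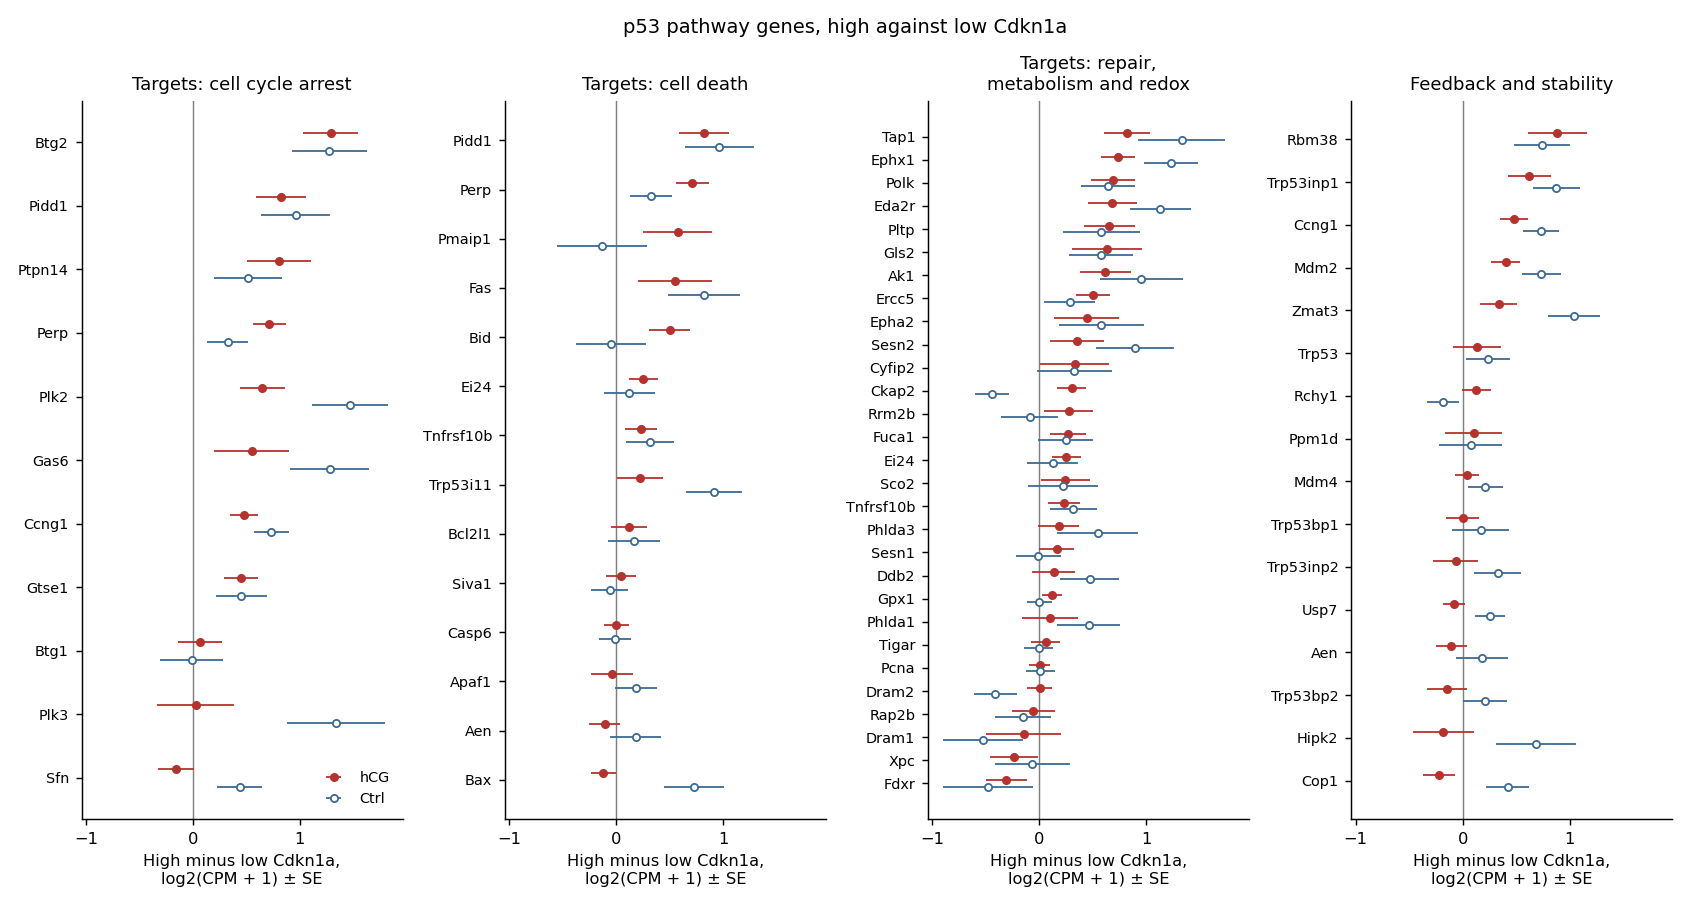
High minus low Cdkn1a difference of log2(CPM + 1), with SE, for tested genes of 4 p53 lists, in hCG (red, filled) and Ctrl (blue, open). Most targets lie right of 0 in both, Btg2 is highest among the hCG arrest targets at 1.29, and Bax lies at -0.12 in hCG and 0.73 in Ctrl.

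A line fitted over the 28 samples uses the full range of Cdkn1a in place of a boundary inside the dense stretch. On this scale, the log2 change of a gene per doubling of Cdkn1a, 86 genes were called (0.793%), 66 rising with Cdkn1a (0.608% of 10847) and 20 falling (0.184%). Of the 50 p53 targets 43 had a positive slope (50.1% of tested genes did), with 9 called rising and 0 falling: Btg2, Plk2, Ccng1, Perp, Pidd1, Polk, Tap1, Eda2r and Ephx1. Among the feedback genes Mdm2, Trp53inp1, Zmat3, Rbm38 and Ccng1 rose. Of the 7 genes called between the groups Btg2, Hyal1 and Sec14l3 rose here too.

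Btg2 had the firmest slope, at 1.44 ± 0.16 per doubling (limma, adjusted p = 1.65e-06), followed by the uncharacterised gene 1700003M07Rik at 1.26 ± 0.15 (adjusted p = 5.92e-06). Eda2r, from 25.96 through 37.2 to 142 CPM in the high group and from 9.62 through 26.5 to 70.8 CPM in the low group, had a slope of 1.03 ± 0.15 (limma, adjusted p = 0.000112). Trp53inp1, a stress protein of p53 feedback and autophagy, had a slope of 0.88 ± 0.14 (adjusted p = 0.000596). Perp rose by 0.70 ± 0.13, Ccng1 by 0.57 ± 0.10 and Mdm2 by 0.47 ± 0.11 per doubling (limma, adjusted p = 0.00389, 0.00334 and 0.0297).

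Outside the p53 lists the rising genes included the nuclear corepressor Hr (1.23), the ephrin Efna3 (1.22), the receptor Notch1 (0.86), the small heat shock protein Hspb1 (0.85), the protease inhibitor Serpine2 (0.83) and the lipid hydrolase Abhd4 (0.61). The falling genes included the heat shock protein Hsph1 (-0.54), the cell cycle factor Mybl2 (-0.42), the corepressor Trim28 (-0.41), lamin B1 (Lmnb1, -0.66), the cohesin subunit Rad21 (-0.35) and the epiblast ligand Fgf4 (-1.30).

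One sample carried much of this. Without hCG 6, 4 genes rose (0.0369%) and 0 fell by limma (1014 at an unadjusted p under 0.05): Btg2, 1700003M07Rik, Abhd4 and Eda2r, which were among the 66. hCG 6 was the highest of the 28 samples in 19 of the 50 p53 targets, against 6.34% of all tested genes. The next samples by Cdkn1a were less often the top: hCG 14 in 3 targets and hCG 10 in 0 (2.47% and 1.66% of all tested genes). At the other end hCG 27, lowest in Cdkn1a, was lowest in 5 targets (3.31% of all tested genes) and above the median of the 28 in 8. hCG 23, of rank 23, was also lowest in 5 targets (8.91% of all tested genes). hCG 28 was lowest in 14 targets, but also in 20.8% of all tested genes, and it had the fewest genes detected of the 28 (12712).

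**Figure D4:**
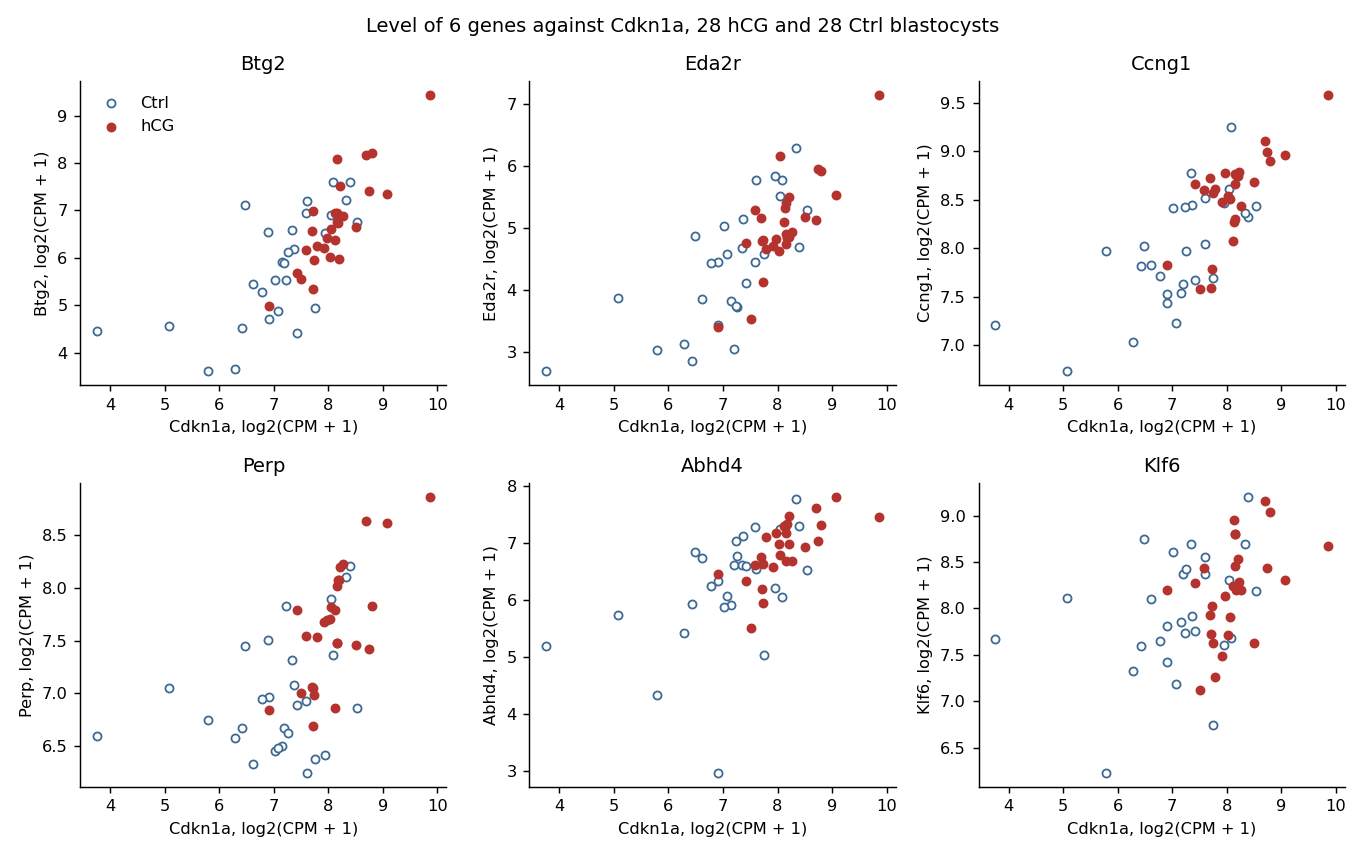
Level of 6 genes against Cdkn1a, both as log2(CPM + 1), in 28 hCG (filled) and 28 Ctrl (open) blastocysts. Btg2, Eda2r, Ccng1 and Perp climb along the axis with hCG 6 highest in each, while other hCG samples exceed hCG 6 in Abhd4 and in Klf6.

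The same ranking in the 28 Ctrl blastocysts used samples that the hCG ranking did not. Their Cdkn1a ran from 149 through 204 to 370 CPM in the high group and from 12.5 through 103 to 145 CPM in the low group. The 9 Ctrl samples with Xist and no Y-linked transcripts were all in the high group, and the 14 of the low group held Y-linked transcripts and no Xist. Cdkn1a rank and the sex-linked transcripts therefore moved together in Ctrl, in part only, since 5 Ctrl samples with Y-linked transcripts and no Xist were in the high group. In hCG the Xist samples were split 4 and 4 between the groups, but over the slope the balance was less even. Of 4 Y-linked genes 0 had a positive slope on Cdkn1a in hCG (median -0.96, 0 called). hCG 6, 10 and 19, of rank 1, 3 and 4, held Xist and no Y-linked transcripts, and Eda2r lies on the X chromosome. In the 15 hCG samples with Y-linked transcripts and no Xist the slope called 5 genes, against 86 over the 28. Those 15 are fewer samples and leave out hCG 6, and the slope without hCG 6 alone called 4 genes. The part of sex in the 86 was not tested.

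In Ctrl 27 genes were called (0.249% of 10847), 17 higher (0.157%) and 10 lower (0.0922%). The lower genes included 6 on the Y chromosome (Eif2s3y, Ddx3y, Kdm5d, Uty, Usp9y and Zfy1), and the higher ones 4 on the X (Tsix, Cdk16, Uba1 and Fthl17b). Among p53 genes Ephx1 (1.23 ± 0.25, limma, adjusted p = 0.0306), Ccng1 (0.73 ± 0.17, adjusted p = 0.0446) and Zmat3 (1.04 ± 0.24, adjusted p = 0.0487) were higher. Without Ctrl 12 and Ctrl 26, which had the fewest genes detected (10382 and 10720), 44 genes were called. With the Y-linked level as a covariate limma called 0 genes (487 at an unadjusted p under 0.05). The overlap with the 7 hCG calls was 0 genes. With 0.0645% of tested genes called in hCG and 0.249% in Ctrl, unrelated lists would also give 0. It therefore does not show that hCG and Ctrl differ, and Ephx1 just missed the threshold in hCG (limma, adjusted p = 0.0509).

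Of the 50 p53 targets 35 had a positive difference in Ctrl (55.9% of tested genes did), with a median of 0.32 against 0.05 over tested genes, and 31 were positive in both hCG and Ctrl (31.3% of tested genes were). Among the 19 Ctrl samples with Y-linked transcripts and no Xist, 40 of the 50 had a positive slope on Cdkn1a (55% of tested genes did), though 0 genes were called by limma (689 at an unadjusted p under 0.05). There the slope was 0.60 ± 0.21 for Btg2, 0.66 ± 0.22 for Plk2 and 0.49 ± 0.17 for Eda2r.

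Whether the difference between high and low samples was itself different in hCG and Ctrl was tested over the 56 samples, and limma called 0 of 10847 genes (877 at an unadjusted p under 0.05, smallest adjusted p 0.133). Btg2 differed by 1.29 in hCG and by 1.28 ± 0.35 in Ctrl. Bax differed by -0.12 ± 0.12 in hCG and 0.73 ± 0.28 in Ctrl, and the difference of the 2 was -0.85 ± 0.31 (limma, adjusted p = 0.429). Map2k2, at -0.64 in hCG and -0.00 ± 0.30 in Ctrl, had a difference of -0.63 ± 0.34 (limma, adjusted p = 0.632).

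Lists of cell division and cell identity genes held 0 calls between the hCG groups, a count that the 0.0645% called over all tested genes also gives for lists of this size. They are described by their medians (0.01 over the tested genes) and signs (52% positive). In such bulk samples fewer cells of a type and less RNA per cell cannot be told apart. Of 30 mitosis genes 0 were called and 0 reached an unadjusted p under 0.05. There 20 differences were positive, with a median of 0.08. In the Ctrl groups 0 of the 30 were called and 3 were positive (55.9% of tested genes were), with a median of -0.21. The cyclin Ccnb1 had medians of 1075 and 1036 CPM (0.06 ± 0.08). Of 33 G1/S cyclins and E2F targets 0 were called (18 positive, median 0.03), and Rrm2, a subunit of ribonucleotide reductase, differed by 0.16 ± 0.10. Of 16 genes of the core apoptosis machinery 0 were called (7 positive, median -0.03). In Ctrl 20 of the 33 and 10 of the 16 were positive.

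Of 23 trophectoderm markers 0 were called, 15 differences were positive and the median was 0.14. Of 17 inner cell mass and epiblast markers 0 were called and 3 were positive, with a median of -0.08, against 52% positive and 0.01 over all tested genes. Of 15 primitive endoderm markers 0 were called and 4 were positive, with a median of -0.11. In the Ctrl groups 12 trophectoderm, 10 inner cell mass and 4 primitive endoderm differences were positive (55.9% of tested genes were). Their Ctrl medians were 0.03, 0.21 and -0.43, against 0.05 over tested genes. Of the inner cell mass markers 0 were positive in both hCG and Ctrl (31.3% of tested genes were). Summed trophectoderm marker levels ran from 8632 through 10987 to 13678 CPM in the high group and from 5585 through 9982 to 14069 CPM in the low group. Summed inner cell mass levels ran from 7310 through 8411 to 10927 CPM and from 6147 through 9166 to 15159 CPM, and the groups overlapped in both. Nanog had medians of 179 CPM in the high and 280 CPM in the low group. Its difference was -0.31 in hCG and 0.56 in Ctrl. Of 21 DNA methylation and demethylation genes 0 were called and 4 differences were positive (median -0.12), against the 52% positive over all tested genes. In Ctrl 9 of the 21 were positive (median -0.01).

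Of 9 tested genes of uterine, stromal and blood cells 8 had a positive difference, against 52% of tested genes, with a median of 0.41 against 0.01. Called were 0 of them, against 0.0645% of tested genes. The summed level of the list's 25 genes ran from 162 through 205 to 387 CPM in the high group and from 97.7 through 174 to 226 CPM in the low group. Muc1, an epithelial mucin, had medians of 7.93 and 3.37 CPM, and the globin Hba-a1 7.38 and 2.27 CPM, while Hbb-bs was at 0 in the 28 samples. The part of such transcripts in the 7 calls was not tested.

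**Figure D5:**
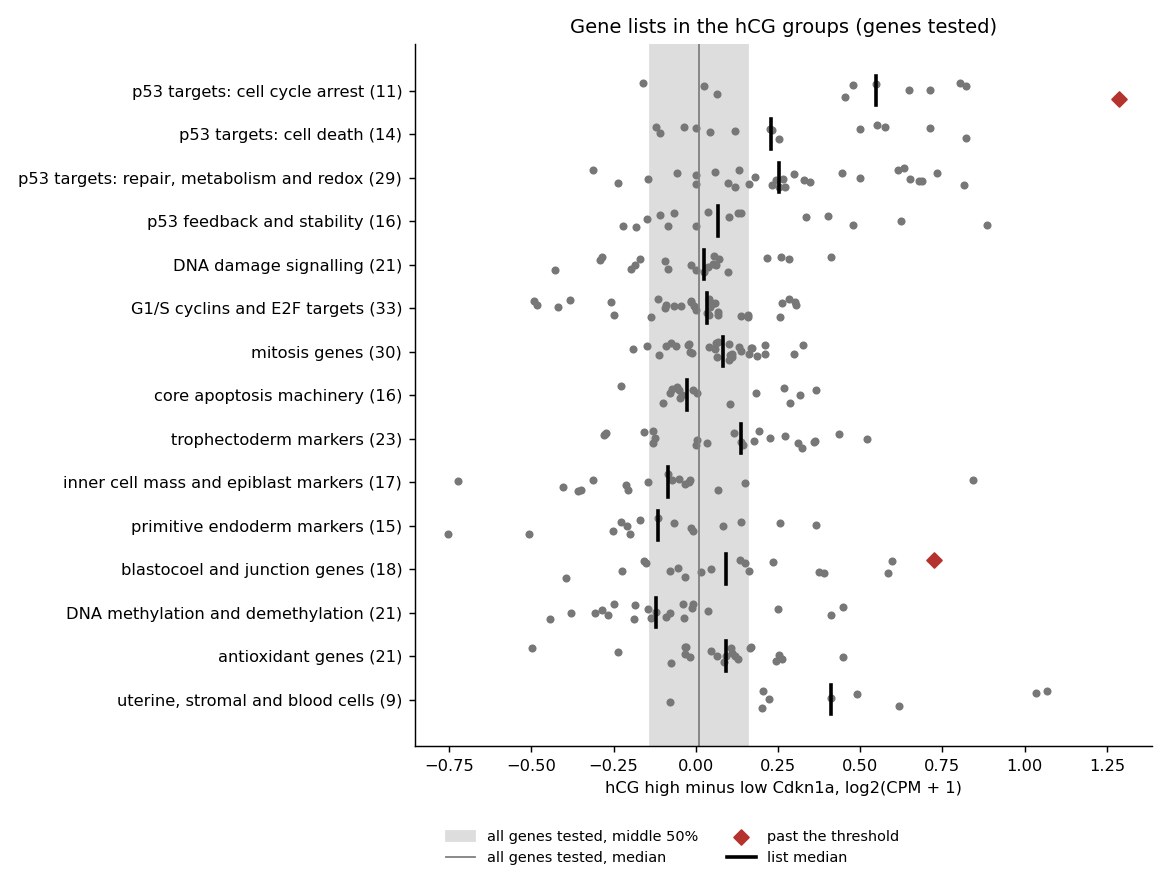
High minus low Cdkn1a difference of log2(CPM + 1) in the hCG samples for tested genes of 15 lists (number in brackets). Dots are genes, black bars list medians, red diamonds called genes, and the grey band the middle 50% of all tested genes. The medians of the arrest (0.55), cell death (0.23), repair (0.25) and uterine, stromal and blood (0.41) lists lie right of the band, and the mitosis and lineage lists have medians inside it.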

How the data were processed

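Values of the 56 blastocyst RNA samples came from one deposited table whose unit is a signal: per its values, estimated counts multiplied by a factor per sample, with 25239 gene symbols. Between 89.0% and 93.5% of a sample's values were whole multiples (tolerance 0.005) of its most frequent step, and division by the step gave the estimated reads. For Cdkn1a alone, the authors' deposited oocyte counts and deposited dentate gyrus expected counts were scaled to CPM. The submitters' processing notes list the builds GRCm38 and mm10, the aligners STAR 2.7.6a and TopHat and the counter HTSeq 0.12.4. Which of them made this table is not given in the sources used here.

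Ranking used CPM of the total. Genes passed edgeR 4.0.16 filterByExpr (at least 10 reads, 15 in total) on estimated reads of the 56 samples. limma 3.58.1 (R 4.3.3; mean-variance trend, robust empirical Bayes, two-sided) was fitted to log2 of TMM-normalised CPM plus 1, with Benjamini-Hochberg adjustment over 10847 genes and a threshold of 0.05. Levels in the text are CPM of the total. Library measures were compared with permutation tests of 100000 resamples. The slope on log2 Cdkn1a, other scalings, covariates, filters and left-out samples were alternatives. Named genes were the called genes with the largest difference, a mean of at least 5 CPM and at least 11 of 14 high samples beyond the low group's median, plus members of gene lists, Trp53, Mdm2, Bax and Ccng1. The 28 samples, the lists and the rule were chosen with earlier results of these data known. Gene positions came from RefSeq (GRCm38.p6), which matched 99.2% of the symbols. Same-numbered hCG and Ctrl samples did not deviate together (median correlation 0.0038), so numbers do not pair them. The other 68 samples of the series entered no comparison here apart from the Cdkn1a levels.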

Additional observations from a re-analysis of the deposited data

How the results depend on the processing

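The count of 7 genes between the hCG groups was 7 with a pseudocount of 0.5 CPM, DESeq2 size factors or a ranking by TMM-normalised Cdkn1a, 8 with a Y-linked covariate, without the samples with both Xist and Y-linked transcripts or by edgeR, and 6 at a mean of at least 5 CPM or, added after seeing the data, in samples with Y-linked transcripts and no Xist. It was 15 with a pseudocount of 5 CPM, 1 with division by the total only and 86 as a slope on Cdkn1a (4 without hCG 6, and 5 in samples with Y-linked transcripts and no Xist, both added after seeing the data). By limma it was 0 for the top 9 against the bottom 9, with the genes detected or depth as covariate, with no filter and in the fit of the 56 samples as 4 groups (900, 843, 922, 1336 and 571 genes at an unadjusted p under 0.05). The replicate block gave 0 hCG calls (358 at an unadjusted p under 0.05), 4 Ctrl calls and 0 for the difference between hCG and Ctrl. 3 of 28 numbers had a correlation above 0.1, and 0 samples correlated best with their own number.

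Leaving out 1 sample moved the hCG count from 0 to 25 and the Ctrl count from 4 to 77. The hCG count moved by over 1.5 times without hCG 2, 3, 4, 7, 8, 10, 11, 13, 14, 15, 16, 17, 18, 19, 22, 23, 25 or 26. No call among the 7 changed sign in any alternative, and of 282 values of 6 uncalled genes 7 did, 5 of Bax and 2 of Trp53. The 27 Ctrl calls became 91 when ranked by TMM-normalised Cdkn1a, 68 for the top 9 against the bottom 9, 69 as a slope, 203 in the fit as 4 groups and, added after seeing the data, 44 without Ctrl 12 and Ctrl 26, 0 with a Y-linked covariate and 0 as a slope in samples with Y-linked transcripts and no Xist. The difference between hCG and Ctrl stayed at 0 called genes in the 6 alternatives run for it. The cause of these changes was not tested. Counts are of reads without molecular identifiers, so counting SDs cover counting error only.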

Other observations

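Zscan4 genes, which in mouse embryos mark the 2-cell stage, stood out in 1 sample of the high group. In hCG 20 Zscan4f was at 1186 CPM, Zscan4d at 534, Zscan4c at 216, Zscan4a at 195 and Zscan4b at 176 CPM. hCG 16, of the low group, held Zscan4f at 63.7, Zscan4d at 17.9 and Zscan4c at 12.3 CPM. In the other 54 blastocysts, hCG and Ctrl together, Zscan4f did not exceed 1.501 CPM and was at 0 in 48. Reads of these near-identical copies can be split between them, so the single levels are uncertain. The summed level of the 2-cell list was 2868 CPM in hCG 20, 122 CPM in hCG 16 and at most 13.1 CPM in the other 54. hCG 20 had 297 CPM of Cdkn1a, rank 8 of the 28, and hCG 16 had 211 CPM. None of these genes passed the low-count filter, so they were not tested, and the sample was seen only after its values were examined.

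5 of the 28 hCG blastocysts (hCG 1, 3, 4, 22 and 23) held Xist from 69.4 to 165 CPM together with Y-linked transcripts from 126 to 173 CPM, and 0 of the 28 Ctrl blastocysts held both above 50 CPM. In hCG samples with Xist alone the Y-linked sum was at most 0.21 CPM. In those with Y-linked transcripts alone Xist was at most 23.3 CPM.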
